A study of Mus musculus with 12 samples.

Results

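The astrocyte fraction was compared with the immune fraction of the injured cortex of Sema4B+/- mice. The comparison took every library of those mice, 6 of the 12 libraries of the study, joined by gene across the deposited tables of the fractions. All 20776 genes of the tables were members, and 16880 had enough reads to be tested. RNA-seq was done on cells panned from a square of 3 by 3 mm cut around a wound of the cerebral cortex, 12 h after the injury. The astrocyte fraction was the cells that a plate carrying anti-ACSA-2 antibody held. The immune fraction was collected from a plate with secondary antibody alone and a plate with antibody against CD45. The other 6 libraries came from Sema4B-/- mice, panned the same way at the same time point. All mice compared here carried 1 mutant copy of Sema4B and all were injured, so neither wild-type nor uninjured levels enter the comparison. Ages, and whether a library is 1 animal or a pool, are not in the labels.

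Panning sorts cells by what they show on their surface. ACSA-2 is the protein of Atp1b2, a sodium pump subunit carried by astrocytes, and CD45 is the phosphatase of Ptprc, carried by nearly all leukocytes. Cells with Fc receptors, such as microglia and macrophages, also bind a plate that bears secondary antibody alone. Astrocytes clear transmitter and potassium from around synapses, cover vessels with their endfeet and supply neurons with lipid and metabolites. Microglia are the resident macrophages of the brain, and within hours of a wound they are joined by neutrophils and monocytes from the blood.

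Levels are counts per 1000000 reads (CPM) on scaled library totals, as mean ± SD (n = 3 libraries), with the astrocyte mean first where the means of the fractions are set against each other. Differences are log2 of astrocyte over immune level ± SE, so that a positive value is higher in the astrocyte fraction. The SE was derived from the test statistic, as described with the processing. A gene is called higher in a fraction where edgeR's quasi-likelihood test gave an adjusted p under 0.05. Where values of single libraries are listed, astrocyte libraries stand in the order 2, 4, 6 and immune libraries in the order 1, 3, 5, after their deposited column heads. The astrocyte libraries held 13530200 to 14768200 reads and the immune libraries 11112000 to 13190800. The labels neither tie a library to an animal nor pair an astrocyte with an immune library, so the p-values rest on the spread among these libraries, which may be technical, and treat them as independent.

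The genes of both panning antigens lay in the fraction that the antibody was meant to catch. Atp1b2 had 6471, 5891 and 5066 CPM in the astrocyte and 136, 147 and 161 CPM in the immune libraries. Its difference was 5.30 ± 0.35, or 39.3-fold. Ptprc had 5.93, 4.46 and 7.37 CPM in the astrocyte and 313, 204 and 309 CPM in the immune libraries, 46.4-fold higher in the latter. No library of a fraction reached the range of the other for either antigen. Both differences passed, with edgeR adjusted p of 3.40e-08 and 1.76e-08.

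The 4 marker genes that were set for the comparison separated in the same way. Slc1a2, the main glutamate transporter of forebrain astrocytes, had 12750.2, 10907 and 11167 CPM in the astrocyte and 208, 225 and 251 CPM in the immune libraries, a difference of 5.67 ± 0.48. Aldh1l1, a folate enzyme used as a marker of all astrocytes, had 771, 638 and 563 CPM against 16.2, 22.2 and 18.5 CPM, a difference of 5.11 ± 0.22. These genes were higher in each astrocyte library than in every immune library. Csf1r, the receptor that microglia need to survive, was at 97.9, 66.9 and 101 CPM in the astrocyte and 3706, 2798 and 2938 CPM in the immune libraries, a difference of -5.15 ± 0.32. Cd33, a sialic acid receptor that restrains myeloid cells, was at 4.33, 4.02 and 5.51 CPM against 297, 257 and 309 CPM, a difference of -5.96 ± 0.22. Each was higher in every immune library than in any astrocyte library, so the markers went with the labels of the fractions. In bulk RNA such as this, fewer cells of a type and less RNA per cell cannot be told apart.

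**Figure D1:**
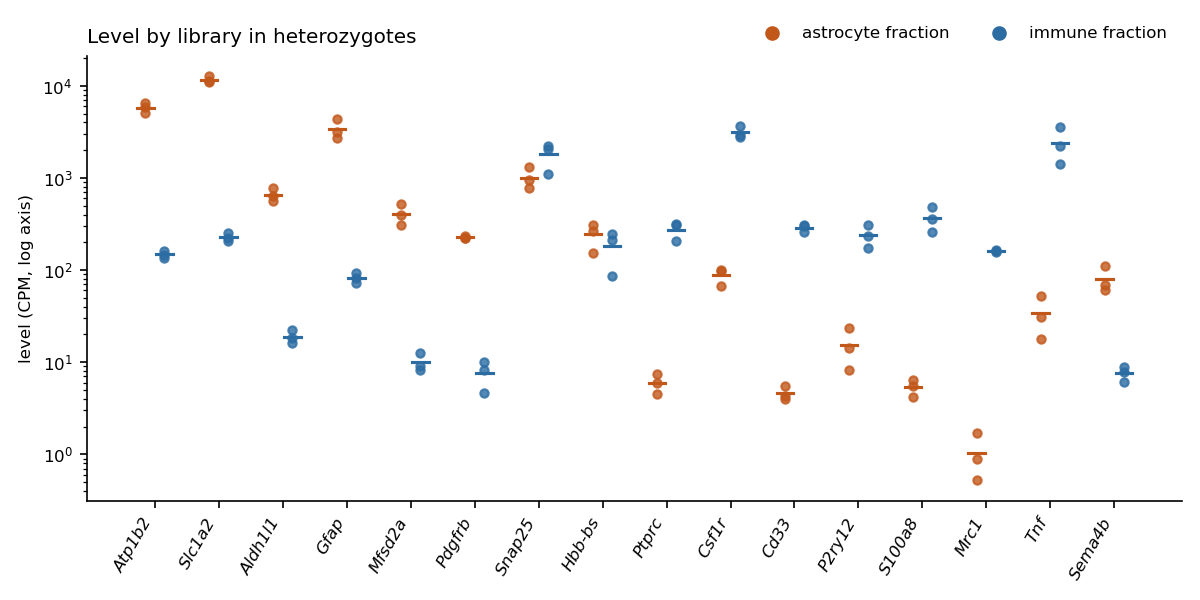
Level of 16 genes in each heterozygous library, in CPM on a log axis, with orange points for the astrocyte and blue points for the immune fraction and a bar at the mean of 3 libraries. The points of the fractions stand apart for each gene except Snap25 and Hbb-bs, whose ranges overlap.

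Sema4b, the gene mutated in the study and a membrane semaphorin, was itself a gene of the astrocyte fraction. It had 68.9, 111 and 60.98 CPM in the astrocyte and 8.83, 6.06 and 7.91 CPM in the immune libraries, 10.6-fold higher in the former (edgeR adjusted p = 1.34e-05). The lowest astrocyte library stood well above the highest immune one. In Sema4B-/- libraries Sema4b was still counted, at 44.9, 27.7 and 58.3 CPM in the astrocyte fraction and 5.38, 2.14 and 1.16 CPM in the immune fraction. Which part of the gene the mutation removes is not given in the sources used here, so these reads do not test the genotype.

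Of 16880 genes tested, 5064 (30.0%) were called higher in the astrocyte fraction and 5107 (30.3%) in the immune fraction. These shares, 60.3% together, are the background for every count below. With the stricter demand of more than 2-fold (edgeR's glmTreat, adjusted p under 0.05), 2693 genes (16.0%) were higher in the astrocyte and 2146 (12.7%) in the immune fraction, 28.7% together. Ranges of the fractions did not overlap for 11450 genes, 67.8% of those tested. The median gene differed by -0.04, and the quartiles lay at -0.80 and 0.82. Scaling of the library totals assumes that most differences balance out, so the median and the near-even split rest in part on it. On unscaled totals the median was -0.13, with 4634 genes called higher in the astrocyte and 5532 in the immune fraction.

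The balance between the fractions changed with the size of the difference. Past 4-fold, 2052 genes were called higher in the astrocyte and 1553 in the immune fraction, and past 8-fold 1254 and 949. Past 32-fold the immune side had more, with 246 and 340, and past 128-fold the numbers were 11 and 32. Genes more than 2-fold higher in the astrocyte fraction held 36.4 to 38.4% of reads in astrocyte libraries and 3.97 to 4.92% in immune libraries. Those more than 2-fold higher in the immune fraction held 28.5 to 35.7% of reads in immune and 4.75 to 4.95% in astrocyte libraries. So each fraction held reads of the other's genes at a few percent. These genes were chosen on the same counts, and the shares are a description.

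**Figure D2:**
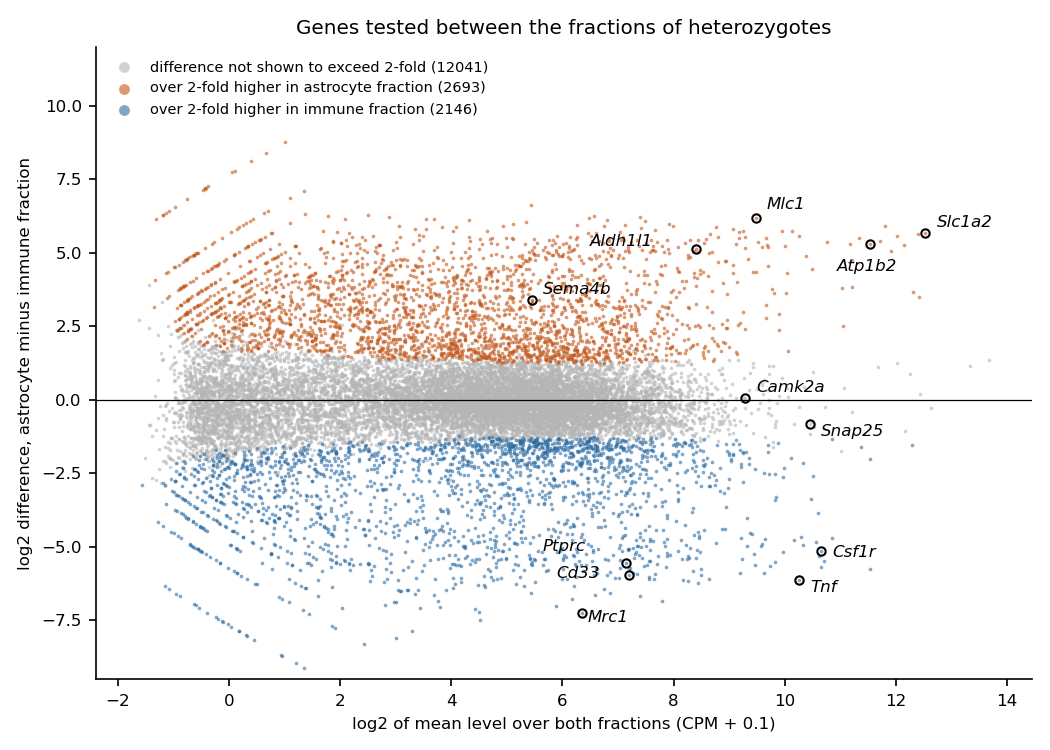
Difference between the fractions of heterozygotes (log2, astrocyte minus immune) against the mean level over both (log2 of CPM + 0.1) for the 16880 genes tested, with one point a gene. Genes more than 2-fold higher are orange for the astrocyte (2693) and blue for the immune fraction (2146), and the spread to either side of 0 is wide at every level.

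The genes furthest on the astrocyte side, among those with at least 100 CPM there, were secreted proteins, lipid enzymes and transporters. Chrdl1, a secreted antagonist of bone morphogenetic proteins, led with 195, 167 and 203 CPM against 1.72, 2.45 and 3.23 CPM, a difference of 6.25 ± 0.43. Fads2, a fatty acid desaturase, had 333 ± 26.2 against 4.45 ± 0.721 CPM (6.22 ± 0.40), and Mlc1, a membrane protein of astrocyte endfeet, 1408 ± 193 against 19.2 ± 4.23 CPM (6.19 ± 0.57). No immune library reached the astrocyte range of these 3 genes. The next were the protocadherin Pcdhgc3 (6.18), the cytochrome Cyp2j9 (6.12), the glypican Gpc5 (6.07) and the zinc transporter Slc39a12 (5.98). Gpld1, a lipase that cuts membrane anchors, Itih5, a protein that binds hyaluronan, and the chaperone Clu followed at 5.94, 5.94 and 5.92. The protease inhibitor A2m (5.92), the adhesive protein Vtn (5.91), the water channel Aqp4 (5.88), the urea transporter Slc14a1 (5.85) and the GABA transporter Slc6a11 (5.82) completed the 15. Vtn, at 571, 318 and 603 CPM in the astrocyte libraries, also stands in the list of pericyte and smooth muscle markers below. The part of those cells in its level was not tested. Pcdhgc3 shares its last exons with other genes of its cluster, and how reads common to them were counted is not given in the sources used here.

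Furthest on the immune side, among genes with at least 100 CPM there, stood receptors and enzymes of macrophages and neutrophils. Mrc1, the mannose receptor of macrophages, had 0.881, 0.521 and 1.72 CPM in the astrocyte and 158, 165 and 163 CPM in the immune libraries, a difference of -7.25 ± 0.35. F13a1, the coagulation factor subunit made by macrophages, had 0.888 ± 0.460 against 117 ± 5.53 CPM (-7.02 ± 0.38). Both were nearly even across the immune libraries, and without astrocyte library 6 the difference of Mrc1 was -7.84. The inhibitory receptors Lilrb4 and Lilr4b, whose sequences are alike enough that reads may be shared, stood at -6.84 and -6.16. Acod1, which makes itaconate in activated macrophages, stood at -6.69, and the lectin receptor Clec4e at -6.77. The chemokine receptor Ccr1 (-6.64), the platelet-activating factor receptor Ptafr (-6.56), Slfn4 (-6.45) and the leukocyte signalling gene Themis2 (-6.33) came next. The rest were the niacin receptor Hcar2 (-6.23), the cytokine Tnf (-6.14), the inflammasome sensor Nlrp3 (-6.12), the ubiquitin ligase Neurl3 (-6.10) and S100a8 (-6.10), a subunit of the neutrophil protein calprotectin.

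The immune libraries were less alike for some of these genes than for others. Clec4e had 111, 56.2 and 263 CPM and Acod1 258, 154 and 591 CPM. Slfn4 had 160.3, 83.4 and 393 CPM. Library 5 was the highest and library 3 the lowest in each of these genes. Without library 5 their differences were -5.99 for Clec4e, -5.98 for Acod1 and -5.65 for Slfn4, all still called. Nlrp3, at 589.7, 640.4 and 481 CPM, and Themis2, at 151, 115 and 169 CPM, varied less.

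Promoter sequence is shown for 5 of the 27 genes named above that had a window, since the lineages read their genes through different transcription factors. The 5 were picked by hand and do not stand for the others. Mrc1 and Nlrp3 held more GAGGAA matches in a single window than any other immune-side gene of the 27. Ptprc and Aldh1l1, which also had windows, are not shown. PU.1, the product of Spi1, is required for macrophages and binds sites with the core GAGGAA. Nuclear factor I proteins act in astrocyte development and bind the half-site TTGGCA. The sequences are the 250 bases before a RefSeq start of each gene, build GRCm38.p6, given 5′ to 3′ on the gene's strand. For Nlrp3, Cd33, Slc1a2 and, by a smaller distance, Sema4b this start lies inside the gene's span in the GENCODE annotation. The sequence shown for these genes is thus not the one before the outermost start. Matches on either strand to either motif are in capitals.
Mrc1 (chr2:14229164-14229413, plus strand): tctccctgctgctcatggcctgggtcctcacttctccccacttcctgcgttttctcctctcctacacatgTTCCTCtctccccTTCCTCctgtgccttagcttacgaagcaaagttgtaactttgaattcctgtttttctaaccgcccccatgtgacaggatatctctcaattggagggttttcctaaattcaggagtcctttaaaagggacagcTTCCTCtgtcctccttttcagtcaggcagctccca
Nlrp3 (chr11:59542436-59542685, plus strand): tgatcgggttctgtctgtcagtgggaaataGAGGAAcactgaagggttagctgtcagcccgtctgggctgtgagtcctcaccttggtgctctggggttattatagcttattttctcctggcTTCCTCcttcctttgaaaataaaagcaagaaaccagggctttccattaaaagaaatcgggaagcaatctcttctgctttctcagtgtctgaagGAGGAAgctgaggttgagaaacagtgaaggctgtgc
Cd33 (chr7:43533172-43533421, minus strand): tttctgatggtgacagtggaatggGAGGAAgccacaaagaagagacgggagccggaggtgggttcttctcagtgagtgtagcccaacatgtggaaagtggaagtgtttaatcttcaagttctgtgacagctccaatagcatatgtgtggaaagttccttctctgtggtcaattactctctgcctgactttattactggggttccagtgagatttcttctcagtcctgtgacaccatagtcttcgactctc
Sema4b (chr7:80186620-80186869, plus strand): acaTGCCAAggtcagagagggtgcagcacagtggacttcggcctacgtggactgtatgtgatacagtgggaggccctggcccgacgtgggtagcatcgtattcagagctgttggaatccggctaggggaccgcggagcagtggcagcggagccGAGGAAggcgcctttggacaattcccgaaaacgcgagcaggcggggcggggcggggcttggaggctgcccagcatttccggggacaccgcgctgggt
Slc1a2 (chr2:102706188-102706437, plus strand): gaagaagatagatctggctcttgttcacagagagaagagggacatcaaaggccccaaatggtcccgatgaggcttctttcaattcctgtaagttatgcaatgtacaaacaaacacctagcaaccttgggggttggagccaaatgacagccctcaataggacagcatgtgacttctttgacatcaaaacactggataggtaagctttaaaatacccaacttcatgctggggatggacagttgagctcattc

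In the windows shown, Mrc1 and Nlrp3 each held GAGGAA 3 times and Cd33 held it 1 time. Before Sema4b, of the astrocyte fraction, TTGGCA and GAGGAA were each present 1 time, and neither was in the window of Slc1a2 nor TTGGCA in those of Mrc1, Nlrp3 and Cd33. The motifs do not overlap each other. Nlrp3 and Sema4b each had a further window, not shown. That of Nlrp3 held GAGGAA 0 times and TTGGCA 1 time, and that of Sema4b TTGGCA 0 times and GAGGAA 1 time. The windows of Slfn4, Themis2, Lilr4b and Neurl3, also of the immune fraction, held GAGGAA 0 times. Over windows of 300 bases, 250 before and 50 after a RefSeq start, 12066 of the 16880 tested genes had an entry. Windows on chromosome 18, which holds Csf1r, Aqp4, Slc14a1 and Pcdhgc3, were left out of all these counts. GAGGAA stood in 664 of 1875 windows (35.4%) of genes more than 2-fold higher in the immune fraction and in 684 of 2465 (27.7%) of those more than 2-fold higher in the astrocyte fraction. It stood in 25.3% of the windows of the other genes tested and in 28.3% of all 32851 windows kept. Among the genes with the largest differences named above, GAGGAA stood in 10 of 15 windows on the immune side and in 5 of 9 on the astrocyte side, and TTGGCA in 3 of 15 and 1 of 9. Over all tested genes TTGGCA stood in 10.5% of immune-side, 14.3% of astrocyte-side and 11.0% of the other windows, and in 14.1% of all. A gene can have several windows, no test was made, and a match is a run of letters rather than a bound site.

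Markers of astrocytes and of the other cell types that panning could hold were then counted. All 20 astrocyte markers were called higher in the astrocyte fraction, each by more than 2-fold, with a median difference of 5.46 against -0.04 over all genes tested. Slc1a3, the other glutamate transporter of astrocytes, had 5077 ± 128 against 111 ± 6.86 CPM and Gfap, their intermediate filament, 3386 ± 831 against 81.8 ± 10.1 CPM. The smallest difference in the list was that of S100b, a calcium-binding protein that some oligodendrocytes also make, at 4.18 ± 0.29. Together the list held 3.89 to 4.24% of reads in the astrocyte libraries and 0.0836 to 0.109% in the immune libraries, none of its genes at 0 in the latter.

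Transcripts of resident microglia were in the immune fraction. All 15 microglia markers were called higher there, with a median of -4.65. Cx3cr1, the fractalkine receptor, had 53.9 ± 12.1 against 1962 ± 168 CPM. Tmem119, a surface protein of microglia, had 10.9, 6.54 and 14.5 CPM in the astrocyte and 367, 272 and 473 CPM in the immune libraries, with no overlap. P2ry12, the ADP receptor that guides microglial processes, had 14.4, 8.26 and 23.4 CPM against 237, 174 and 310.4 CPM (-3.96 ± 0.35). The exception in size was Sall1, the factor that keeps microglial identity. It had 93.5 ± 19.7 against 189 ± 29.4 CPM, a difference of -1.02 ± 0.31, and was the only member that did not pass the test for more than 2-fold. The list held 1.09 to 1.24% of reads in immune and 0.0377 to 0.0536% in astrocyte libraries.

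Transcripts of blood leukocytes were in the immune fraction too, at levels that differed between its libraries. 15 of 15 neutrophil markers tested were called higher there, with a median of -6.10. Camp and Mpo, genes of granule precursors, had too few reads to test. S100a9, the partner of S100a8, had 15.3, 10.04 and 9.23 CPM in the astrocyte and 798, 513 and 1055 CPM in the immune libraries, and Csf3r, the receptor for granulocyte colony-stimulating factor, 7.45, 3.50 and 8.96 CPM against 381, 200.1 and 620.3 CPM. Library 5 was highest and library 3 lowest in both. The whole neutrophil list held 0.00535, 0.00400 and 0.00450% of reads in astrocyte libraries 2, 4 and 6 and 0.236, 0.183 and 0.403% in immune libraries 1, 3 and 5.

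Monocyte markers were less uniform than neutrophil markers. 11 of 14 were called higher in the immune and 1 in the astrocyte fraction, with a median of -5.23. Ccr2, the chemokine receptor that brings monocytes out of the marrow, had 1.12, 0.372 and 0.827 CPM against 37.1, 16.8 and 36.98 CPM, and Chil3, a secreted lectin, 1.04, 0.744 and 0.827 CPM against 69.8, 42.1 and 62.6 CPM. Thbs1, the matrix protein thrombospondin 1, had 38.1, 22.2 and 24.4 CPM against 1255, 685 and 2235 CPM (-5.62 ± 0.48). Library 3 was lowest in each of these 3 genes. The member called the other way was Fabp5, a fatty acid carrier, with 114 ± 20.7 against 21.5 ± 6.07 CPM (2.41 ± 0.31). Fn1, at 113 ± 92.1 against 92.8 ± 46.4 CPM, and Itga4, at 11.6 ± 2.35 against 16.5 ± 3.32 CPM, did not pass. Ly6c2 and Ly6c1 are near copies, and how shared reads were counted is not given in the sources used here. The list held 0.0277, 0.0175 and 0.0402% of reads in astrocyte libraries 2, 4 and 6 and 0.159, 0.107 and 0.311% in immune libraries 1, 3 and 5.

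All 12 markers of border macrophages, which line the vessels and meninges, were called higher in the immune fraction, and their median of -6.58 was the lowest of the 48 lists. Stab1, a scavenger receptor, had 11.2 ± 3.38 against 639.7 ± 157 CPM, and Cd163, which takes up haemoglobin, 0.243 ± 0.170 against 45.5 ± 6.30 CPM (-7.48, and -8.12 without astrocyte library 6). Pf4, a platelet and macrophage chemokine, had 0.562 ± 0.265 against 47.8 ± 11.3 CPM. Of lymphocyte markers, 11 of 15 in the tables could be tested and 7 were called higher in the immune fraction. With no filter on low counts 11 were called, and with at least 1 CPM in 3 libraries 4. They were low: Il7r, the interleukin 7 receptor, had 0.179 ± 0.129 against 6.47 ± 2.27 CPM (-5.15, and -5.79 without astrocyte library 2), and Cd4 had 0.899 ± 0.357 against 5.45 ± 0.375 CPM. The CD3 chain genes Cd3e, at 0.708 ± 0.316 against 1.15 ± 0.459 CPM, and Cd3g, at 0.458 ± 0.259 against 1.05 ± 0.489 CPM, did not pass. 7 of 8 dendritic cell markers were called higher there. Ccr7, the receptor that takes dendritic cells to lymph nodes, had 0.586 ± 0.161 against 47.5 ± 15.1 CPM, and Ccl22, a chemokine of mature dendritic cells, 0.548 ± 0.175 against 43.9 ± 16.6 CPM.

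**Figure D3:**
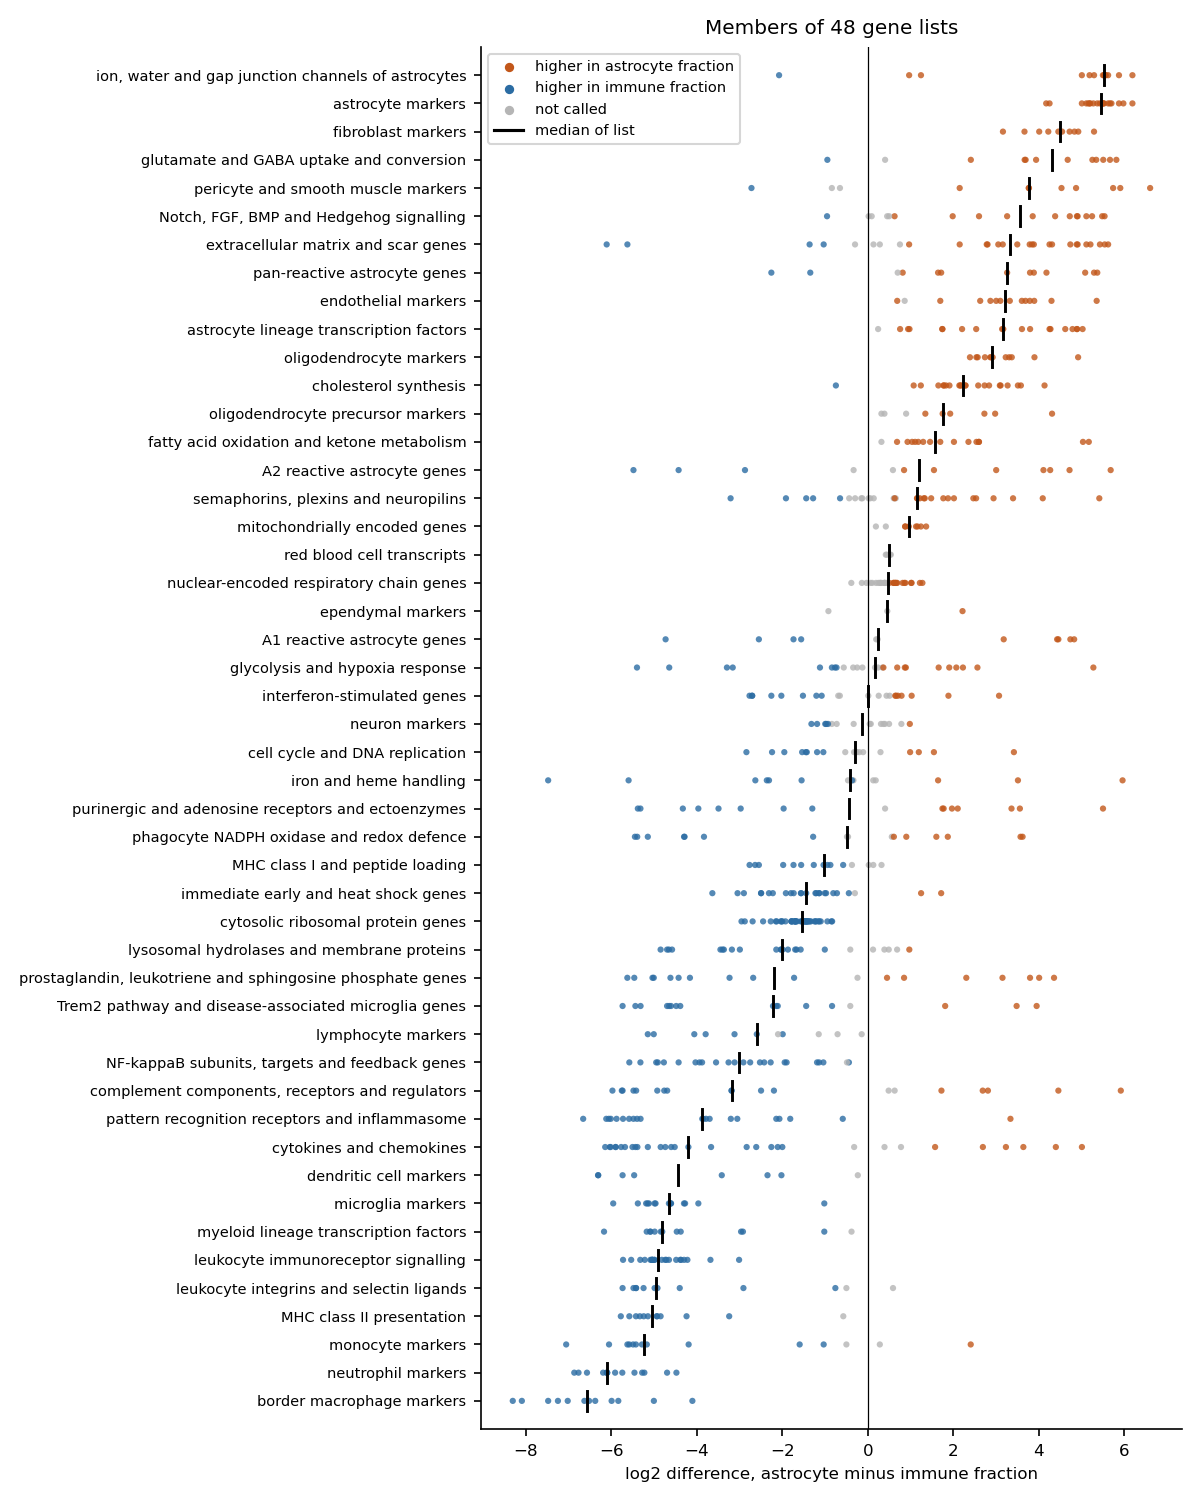
Difference between the fractions (log2, astrocyte minus immune) for the tested members of 48 gene lists, with one point a gene and a bar at the median of each list. Lists are sorted by median, from 5.52 for channels of astrocytes to -6.58 for border macrophage markers. Orange and blue points were called higher in the astrocyte and the immune fraction, and grey points were not called.

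Vessel genes were on the astrocyte side. 13 of 14 endothelial markers were called higher in the astrocyte fraction, with a median of 3.21. Flt1, a receptor for vascular endothelial growth factor, had 135 ± 73.6 against 10.4 ± 0.989 CPM, and Cldn5, the tight junction protein of brain vessels, 51.2 ± 35.1 against 5.96 ± 1.91 CPM. Without astrocyte library 6 the difference of Cldn5 was 2.43 in place of 3.10. Mfsd2a, a lipid transporter of the blood-brain barrier, had 409 ± 110.1 against 9.95 ± 2.24 CPM. Pecam1, which myeloid cells share with endothelium, had 54.6 ± 31.9 against 30.03 ± 12.3 CPM and did not pass. The list summed to 1144 to 1537 CPM in astrocyte and 308 to 382 CPM in immune libraries. Much of these sums was Slc2a1, at 413 ± 29.0 against 256 ± 32.7 CPM, and, in the astrocyte fraction, Mfsd2a. Mfsd2a was highest in astrocyte library 4 (525 CPM) and lowest in library 6 (306 CPM), whereas Flt1 was lowest in library 4 (66.3 CPM) and highest in library 6 (213 CPM). How far the sums stand for endothelium was not tested.

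Of markers of pericytes and smooth muscle, the contractile cells of vessel walls, 8 of 11 were called higher in the astrocyte and 1 in the immune fraction. Rgs5, a regulator of G proteins, had 419 ± 129 against 18.03 ± 8.19 CPM, Pdgfrb, the growth factor receptor of pericytes, 226 ± 9.06 against 7.67 ± 2.77 CPM, and the potassium channel subunit Abcc9 85.9 ± 19.5 against 0.872 ± 0.0251 CPM. Cald1, the actin-binding protein caldesmon of contractile cells, had 111 ± 28.4 against 8.07 ± 4.27 CPM (3.77 ± 0.72). Acta2, smooth muscle actin, went the other way, with 3.92, 2.68 and 5.86 CPM in astrocyte and 5.64, 44.3 and 32.5 CPM in immune libraries (-2.72 ± 0.90). Immune library 1 lay within the astrocyte range, and the call was lost without astrocyte library 2 or 4 or immune library 3 (-2.67, -2.49 and -2.18). Tagln and Myh11, also of smooth muscle, did not pass. The list summed to 1087 to 1792 CPM in astrocyte and 39.6 to 138 CPM in immune libraries. All 10 fibroblast markers were called higher in the astrocyte fraction, with a median of 4.51. Dcn, the proteoglycan decorin, had 78.4 ± 13.1 against 1.99 ± 0.874 CPM, and the collagen gene Col1a2 50.8 ± 3.20 against 1.66 ± 0.523 CPM. This list summed to 256 to 342 CPM in astrocyte and 8.83 to 16.5 CPM in immune libraries.

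Myelin genes were found there as well. All 12 oligodendrocyte markers were called higher in the astrocyte fraction, with a median of 2.90. The list held 0.307, 0.263 and 0.567% of reads in astrocyte libraries 2, 4 and 6 and 0.0471, 0.0545 and 0.0552% in immune libraries 1, 3 and 5, so that library 6 stood above the other astrocyte libraries. Among oligodendrocyte precursor markers 6 of 9 were called higher in the astrocyte and 0 in the immune fraction. Cspg5, a proteoglycan that astrocytes also make, had 1018 ± 141 against 51.2 ± 8.66 CPM, and the lineage factors Olig1 and Olig2 217 ± 40.5 against 32.7 ± 12.6 CPM and 101 ± 38.7 against 12.8 ± 5.73 CPM. Neu4, Lhfpl3 and C1ql1 did not pass.

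Neuronal transcripts were in both fractions. Of 16 neuron markers, 5 were called higher in the immune and 1 in the astrocyte fraction, to be read against background shares of 30.3% and 30.0%. The 5 were Rbfox3, Celf4, Nefm, Nefl and Stmn2. Rbfox3, the nuclear protein NeuN, had 129.5, 170.1 and 146 CPM against 255, 407 and 449.8 CPM (-1.32 ± 0.32), and Celf4, an RNA-binding protein, 120.1, 146 and 147 CPM against 233, 304 and 402 CPM (-1.18 ± 0.26). Reln, secreted by some cortical interneurons, was called on the astrocyte side (0.99 ± 0.38), a call lost without any of libraries 1, 2, 4 and 5 (0.70 to 1.02), on unscaled totals (0.88) and in limma-voom (0.98). Without immune library 3 the calls of Nefl (-0.66), Nefm (-0.72) and Stmn2 (-0.85) were lost and 2 members stayed called on the immune side. Nefm was also lost without astrocyte library 6 (-0.91), and Stmn2 without any of libraries 2, 4, 5 and 6 (-0.97 to -0.70). Slc17a7, the glutamate transporter of synaptic vesicles, had 359.6 ± 94.4 against 272 ± 56.9 CPM and was not called. Syt1, the calcium sensor of vesicle release, had 362 ± 76.8 against 292 ± 47.2 CPM and was not called either. The list held 0.269, 0.371 and 0.299% of reads in astrocyte libraries 2, 4 and 6 and 0.307, 0.580 and 0.529% in immune libraries 1, 3 and 5, ranges that overlap (exact permutation test, two-sided, p = 0.200).

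Of ependymal transcripts 1 of 3 tested was called, and of red blood cell transcripts none. Foxj1, the factor of motile cilia, was called on the astrocyte side with 3.44 ± 1.17 against 0.728 ± 0.303 CPM, while Dynlrb2 and Rsph1 did not pass and Ak7 had too few reads. None of 5 red cell transcripts was called in either direction. The globin gene Hbb-bs had 267, 309.9 and 154 CPM against 246, 214 and 85.4 CPM, and Hba-a1 88.3, 101 and 46.2 CPM against 69.00, 68.1 and 27.97 CPM. Immune libraries 1 and 3 lay within the astrocyte range for Hbb-bs and library 5 below it. The differences of Hbb-bs, Hbb-bt, Hba-a1, Hba-a2 and the haem enzyme gene Alas2 ran from 0.42 to 0.54. The Hba and Hbb copies are nearly identical, and reads may have been split between them.

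Transmitter uptake belonged to the astrocyte fraction. 10 of 12 genes of glutamate and GABA uptake and conversion were called higher there, with a median of 4.31. Glul, glutamine synthetase, which turns glutamate to glutamine, had 9952, 9360.5 and 8741 CPM in astrocyte and 761, 817 and 622 CPM in immune libraries (3.67 ± 0.26). The glutamine exporter Slc38a3 had 574 ± 34.02 against 14.1 ± 3.13 CPM. In the immune fraction 1 gene of the list was called higher. The cystine-glutamate exchanger Slc7a11 had 282 ± 12.5 against 213 ± 27.8 CPM and did not pass.

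Ion and water channels were as clear. 13 of 14 such genes were called higher in the astrocyte fraction, with a median of 5.52, the highest of all lists. Gja1, which forms the gap junctions that join astrocytes, had 1497 ± 155 against 40.96 ± 6.23 CPM and Kcnj10, the potassium channel that buffers synaptic potassium, 877 ± 127 against 18.9 ± 2.08 CPM. Smaller differences were those of the cotransporter Slc12a2 (0.97) and the chloride channel Clcn2 (1.25). Trpv4, a cation channel that opens on swelling and heat, was called on the immune side with 1.84, 1.64 and 2.21 CPM in astrocyte and 9.16, 8.52 and 6.38 CPM in immune libraries (-2.07 ± 0.29).

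Transcription factors followed the lineages. 18 of 19 factors of the astrocyte lineage were called higher in the astrocyte fraction and 0 in the immune fraction, with a median of 3.17. Id4, an inhibitor of neuronal bHLH factors, had 349.8 ± 123 against 12.6 ± 4.90 CPM, Sox9, which starts gliogenesis, 337 ± 60.5 against 17.6 ± 2.15 CPM, and Lhx2 292 ± 10.4 against 32.9 ± 9.23 CPM. The nuclear factor I genes Nfia, Nfib and Nfix had smaller differences of 1.75 ± 0.20, 0.98 ± 0.22 and 0.76 ± 0.21. Tcf7l2 did not pass. Of 13 tested factors of the myeloid lineage 12 were called higher in the immune fraction, with a median of -4.81. Spi1 had 16.8, 11.8 and 17.2 CPM in astrocyte and 533, 350.1 and 432 CPM in immune libraries (-4.84 ± 0.33), and Irf8, its partner in microglia, 12.8 ± 0.612 against 267 ± 35.04 CPM. Cebpb, a factor induced in inflammation, had 84.1 ± 33.3 against 636 ± 112 CPM. Cebpa, a factor of myeloid precursors, had 148 ± 57.5 against 192 ± 14.6 CPM, a difference of -0.38 ± 0.29 that did not pass.

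Receptors for growth factors and morphogens were mostly on the astrocyte side. 13 of 18 genes of Notch, FGF, BMP and Hedgehog signalling were called higher there and 1 in the immune fraction. The FGF receptor Fgfr3 had 1132 ± 158 against 25.2 ± 4.40 CPM and Fgfr1 464 ± 60.8 against 13.4 ± 0.977 CPM, while the ligand Fgf1 had 252 ± 35.5 against 8.35 ± 0.247 CPM. Hedgehog targets were among them, with Ptch1 at 181 ± 35.8 against 18.9 ± 2.23 CPM and Gli1 at 80.2 ± 14 against 3.04 ± 0.924 CPM. Notch1 and Notch2 parted, at 0.63 ± 0.24 and -0.95 ± 0.23. The call of Notch1 was lost without any of libraries 2, 3, 4 and 5 (0.44 to 0.67). Notch2 was the member called on the immune side.

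Genes of lipid synthesis were higher in the astrocyte fraction. 21 of 22 genes of cholesterol synthesis were called higher in the astrocyte fraction, with a median of 2.23. Msmo1, a late enzyme of the pathway, had 559.5, 770.2 and 608 CPM against 33.8, 41.7 and 34.5 CPM (4.14 ± 0.30). Hmgcs1, at the entry, had 491 ± 42.5 against 81.7 ± 21.04 CPM and Srebf2, the factor that switches the pathway on, 359 ± 27.3 against 105 ± 10.8 CPM. Ebp, a sterol isomerase, was called on the immune side at 22.2 ± 1.84 against 37.2 ± 8.11 CPM (-0.75 ± 0.18). Fatty acid oxidation and ketone genes were called higher in the astrocyte fraction for 15 of 16, with a median of 1.58. Cpt1a, which admits fatty acids to mitochondria, had 219 ± 16.8 against 36.1 ± 9.12 CPM. Acads, for short chains, did not pass.

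Glycolysis had members on both sides, split by isozyme. 10 of 25 genes of glycolysis and hypoxia were called higher in the astrocyte and 8 in the immune fraction, with a median of 0.17. Against 30.0% and 30.3% of all genes tested, the list as a whole did not lean far to a side. Hexokinase 1 (Hk1) had 277 ± 29.4 against 149 ± 38.2 CPM, higher in the astrocyte fraction, while hexokinase 2 (Hk2) had 28.9 ± 7.98 against 258 ± 30.6 CPM and hexokinase 3 (Hk3) 1.97 ± 0.771 against 83.6 ± 31.3 CPM, higher in the immune fraction. For aldolase, Aldoc had 8888 ± 898 against 229 ± 44.6 CPM (5.28 ± 0.26) and Aldoa 1554 ± 129 against 1843 ± 205 CPM, which did not pass.

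Later steps were split by isozyme as well. The phosphofructokinase genes Pfkm and Pfkp were higher in the astrocyte fraction (2.57 ± 0.21 and 2.07 ± 0.18) and Pfkl in the immune fraction (-0.77 ± 0.16). Lactate dehydrogenase B (Ldhb) was higher in the astrocyte fraction, with 699 ± 67.4 against 186 ± 37.2 CPM, and Ldha in the immune fraction, with 383 ± 24.7 against 636 ± 128 CPM. Of the monocarboxylate transporters that move lactate, Slc16a1 had 202, 191 and 253 CPM in astrocyte and 87.6, 68.6 and 48.2 CPM in immune libraries, and Slc16a3 11.5, 9.74 and 10.1 CPM against 291, 204 and 289 CPM. Their differences were 1.66 ± 0.25 and -4.64 ± 0.28. Pfkfb3, which makes the activator of phosphofructokinase and is induced by hypoxia and inflammation, had 153, 251 and 108 CPM against 1829, 1818 and 1383 CPM (-3.29 ± 0.33). Vegfa, a hypoxia target, was higher in the astrocyte fraction (2.23 ± 0.28) and Hif1a, the oxygen-regulated factor, in the immune fraction (-1.12 ± 0.19).

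**Figure D4:**
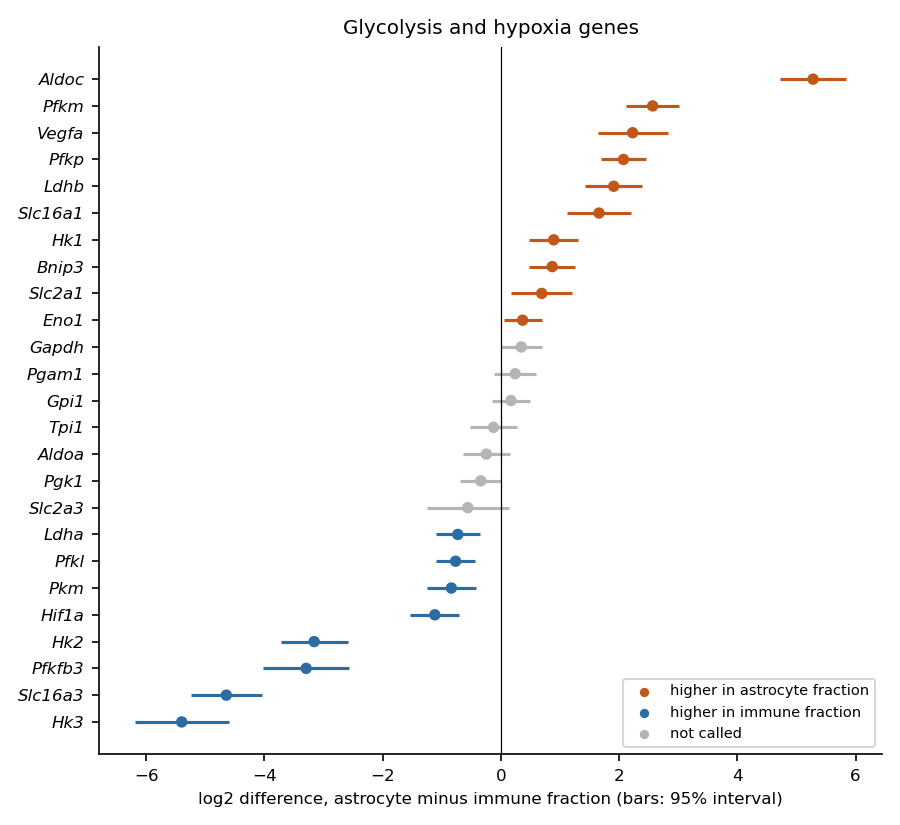
Difference between the fractions (log2, astrocyte minus immune) of 25 genes of glycolysis and the hypoxia response. Bars are 95% intervals derived from the edgeR test statistic. Aldoc stands furthest to the astrocyte side at 5.28 and Hk3 furthest to the immune side at -5.40, and the grey genes were not called.

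Most cytokine and chemokine genes were higher in the immune fraction. Of 31 genes 22 were called higher there and 6 in the astrocyte fraction, with a median of -4.20. Tnf, the early inflammatory cytokine, had 31.2, 18.00 and 52.7 CPM in astrocyte and 3563, 1418 and 2232 CPM in immune libraries. Ccl3 and Ccl4, chemokines of activated microglia, had 106 ± 14.2 against 5812 ± 2281 CPM and 61.2 ± 13.9 against 3140.2 ± 1300.1 CPM, and Il1a, an alarm cytokine, 39.1 ± 15.1 against 1775 ± 663 CPM. Library 1 was highest and library 3 lowest in Tnf, and the list held 0.236, 0.202 and 0.221% of reads in astrocyte libraries 2, 4 and 6 and 2.76, 1.58 and 2.01% in immune libraries 1, 3 and 5. The 6 on the astrocyte side were Cxcl14, Il33, Tgfb2, Cxcl12, Il18 and Il34. Cxcl14, a chemokine, had 803 ± 73.4 against 24.8 ± 4.62 CPM (5.01 ± 0.31), the nuclear alarm cytokine Il33 181 ± 23.9 against 8.51 ± 2.82 CPM (4.40 ± 0.30) and Il18, which the inflammasome activates, 97.3 ± 12.7 against 15.04 ± 2.59 CPM. Cxcl1, a neutrophil chemokine, had 105 ± 31.3 against 61.1 ± 19.5 CPM and was not called, while its relative Cxcl2 had 15.8 ± 3.40 against 665 ± 340.3 CPM.

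Genes of NF-kappaB and of pattern recognition were mostly on the same side. 23 of 24 genes of NF-kappaB subunits, targets and feedback were called higher in the immune fraction, with a median of -3.01. Plek, a phagocyte protein, had 76.3 ± 9.69 against 3048 ± 729 CPM, Tnfaip3, the feedback inhibitor A20, 49.6 ± 4.92 against 1494 ± 252 CPM, and Nfkbia, the inhibitor of NF-kappaB, 250.2 ± 22.2 against 1437 ± 297 CPM. The subunit genes differed unequally, from Rel at -4.77 ± 0.27 to Rela at -0.44 ± 0.17. The call of Rela was lost without any library other than immune library 5 (-0.50 to -0.32), and with all libraries under RLE scaling (-0.42) or no filter (-0.43). Sod2, the exception, had 202 ± 19.7 against 283 ± 79.2 CPM and did not pass. 20 of 21 genes of pattern recognition and the inflammasome were called higher in the immune fraction, with a median of -3.87. Cd14, which hands bacterial lipid to Tlr4, had 73.4 ± 9.38 against 3281 ± 1031 CPM and Tlr2 26.6 ± 3.44 against 1561 ± 302 CPM. Tlr3, the receptor for double-stranded RNA, was the opposite, with 143, 219 and 164 CPM in astrocyte and 15.8, 18.4 and 17.7 CPM in immune libraries (3.34 ± 0.29). No immune library reached the astrocyte range.

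Complement was divided by its parts. 12 of 19 genes were called higher in the immune and 5 in the astrocyte fraction. The subunits of C1q were on the immune side, with C1qa at 82.1 ± 20.8 against 2492 ± 625 CPM, C1qb at 138 ± 28.8 against 3574 ± 833 CPM and C1qc at 81.95 ± 19.9 against 2223 ± 439.6 CPM. The proteases that C1q carries, C1ra and C1s1, were low and on the astrocyte side (1.73 ± 0.38 and 2.69 ± 0.60, the latter 2.07 without astrocyte library 6). C4b, the component they cut, was on the astrocyte side at 221 ± 24.4 against 31.5 ± 10.4 CPM (2.81 ± 0.25), as was Serping1, their inhibitor, at 78.1 ± 23.5 against 3.52 ± 0.992 CPM. C3, the next component, was on the immune side with 12.6, 5.06 and 10.5 CPM in astrocyte and 65.4, 32.8 and 159 CPM in immune libraries (-3.19 ± 0.55, and -2.38 without library 5), and its receptor gene C3ar1 with 13.04 ± 1.21 against 704 ± 232 CPM. Clu, which blocks the terminal complex, had 7007 ± 733 against 116 ± 5.36 CPM (5.92 ± 0.45). Serping1 also stood in the fibroblast list, whose sums are given above, and the part of fibroblasts in its level was not tested.

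Antigen presentation lay in the immune fraction, class II more than class I. 11 of 12 genes of MHC class II presentation were called higher there, with a median of -5.04. Cd74, the invariant chain, had 8.17 ± 2.20 against 309 ± 84.3 CPM, H2-Ab1 1.63 ± 0.774 against 58.5 ± 23.97 CPM and the protease gene Ctss 101 ± 18.1 against 2921 ± 669 CPM. Ciita, the switch of class II genes, was low at 1.22 ± 0.361 against 1.83 ± 1.18 CPM and did not pass. Of MHC class I and peptide loading genes 11 of 15 were called higher in the immune fraction, with a median of -1.03. B2m, the light chain, had 277 ± 61.7 against 1719 ± 476 CPM, H2-D1 124 ± 10.5 against 725 ± 172 CPM and H2-K1 156 ± 1.29 against 617 ± 129 CPM. The peptide transporter genes Tap1 and Tap2 had differences of 0.32 ± 0.29 and 0.13 ± 0.22 and were not called. H2 genes are close relatives, and shared reads may affect their counts.

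Interferon-stimulated genes did not lean to a side. 7 of 21 were called higher in the astrocyte and 8 in the immune fraction, shares near the background, with a median of 0.01. Without immune library 3 the astrocyte count was 4, and without immune library 1 the immune count was 5. Ifit3, an antiviral protein, had 51.1 ± 11.96 against 13.8 ± 2.09 CPM (1.89 ± 0.37) and was on the astrocyte side. Bst2, which tethers virus to the cell, had 8.66 ± 2.49 against 56.5 ± 21.3 CPM (-2.70 ± 0.32) and Cxcl10, a chemokine for T cells, 117 ± 26.97 against 559 ± 273 CPM (-2.26 ± 0.38), on the immune side. Ifit1 had a difference of 0.26 ± 0.42 and was not called.

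Leukocyte signalling and adhesion genes were mostly on the immune side. All 22 genes of immunoreceptor signalling were called higher in the immune fraction, with a median of -4.90. Laptm5, a lysosomal membrane protein of leukocytes, had 46.4 ± 9.71 against 1476 ± 261 CPM, and the Fc receptor gene Fcgr3 43.5 ± 5.92 against 1141 ± 167 CPM, with its signalling chain gene Fcer1g at 44.3 ± 11.5 against 925 ± 263 CPM. Fc receptors are what a plate with secondary antibody alone can hold, and all of Fcgr1, Fcgr2b, Fcgr3 and Fcgr4 were called on this side, from -5.09 ± 0.40 for Fcgr1 to -3.01 ± 0.25 for Fcgr2b. Of leukocyte integrins and selectin ligands 10 of 12 were called higher there, with a median of -4.95. Itgam, a chain of complement receptor 3, had 13.8 ± 5.07 against 592 ± 196 CPM, and its partner Itgb2 8.19 ± 1.42 against 366 ± 102 CPM. Vcam1, a ligand of integrins made by endothelium and astrocytes, had 179 ± 18.5 against 119 ± 38.5 CPM and was not called.

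Phagocyte enzymes separated from general redox enzymes. Of the list of NADPH oxidase and redox defence 7 of 16 were called higher in the immune and 6 in the astrocyte fraction. The oxidase subunits Cybb, Cyba, Ncf1 and Ncf4 were all on the immune side, from -5.45 for Cybb to -3.83 for Cyba. On the astrocyte side stood Prdx6, a peroxidase that also repairs lipids, at 1649 ± 137 against 134 ± 8.70 CPM, Nqo1, a quinone reductase, at 14.7 ± 2.01 against 1.23 ± 0.189 CPM, Gclm, of glutathione synthesis, at 178 ± 21.5 against 48.6 ± 14.1 CPM, and Cat, catalase, at 202 ± 15.6 against 66.2 ± 11.2 CPM. Hmox1, which degrades haem, had 565 ± 82.4 against 778 ± 293 CPM and was not called.

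Of 24 lysosomal genes, 18 were higher in the immune fraction, with a median of -2.01. Ctsb, the protease cathepsin B, had 1168 ± 116 against 4772 ± 1458 CPM, Lgmn, legumain, 249.7 ± 24.6 against 2575 ± 464 CPM, and Cd68, a membrane protein of phagocyte lysosomes, 26 ± 6.13 against 674 ± 232 CPM. Structural membrane proteins did not follow, with Lamp1 at 899 ± 78.1 against 639 ± 138 CPM and Lamp2 at 366 ± 18.96 against 336 ± 54.7 CPM, neither called. Npc1, the cholesterol exporter of lysosomes, was called on the astrocyte side at 244 ± 23.97 against 124 ± 24.8 CPM (0.97 ± 0.22), while its soluble partner Npc2 was on the immune side (-1.0 ± 0.25). Of Trem2 pathway and disease-associated microglia genes 13 of 17 were called higher in the immune and 3 in the astrocyte fraction. Cd9 had 131 ± 20.5 against 609 ± 123 CPM, Lpl, a lipase of lipid-laden microglia, 26.9 ± 10.4 against 674 ± 289 CPM, and Ctsd 473 ± 31.6 against 2084 ± 304 CPM. The 3 on the astrocyte side were Apoe, the brain's main lipid carrier, at 10086 ± 1370.0 against 901 ± 145 CPM, Axl, a receptor for dying cells, at 354 ± 34.97 against 22.9 ± 5.79 CPM, and Gpnmb at 8.76 ± 3.45 against 2.51 ± 1.31 CPM.

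Iron genes divided by task. 7 of 14 were called higher in the immune and 3 in the astrocyte fraction. Storage genes were on the immune side, with Fth1 at 2559 ± 465 against 7480.3 ± 2184 CPM (-1.55 ± 0.28) and Ftl1 at 111 ± 28.5 against 686 ± 218 CPM (-2.63 ± 0.27), as was Slc11a1, which moves iron out of phagosomes, at 8.48 ± 2.30 against 409.7 ± 101 CPM. The copper ferroxidase genes Cp and Heph were on the astrocyte side at 235 ± 32.8 against 75.1 ± 18.2 CPM and 67.98 ± 14.1 against 1.07 ± 0.299 CPM, together with the reductase gene Steap3 at 50.4 ± 8.26 against 4.42 ± 1.08 CPM. The transferrin receptor gene Tfrc did not pass.

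Genes known from reactive astrocytes were not all astrocyte genes here. Of 13 pan-reactive genes 10 were called higher in the astrocyte and 2 in the immune fraction, with a median of 3.26. Serpina3n, a protease inhibitor, had 1283, 1055 and 930.5 CPM in astrocyte and 28.9, 27.8 and 26.4 CPM in immune libraries (5.30 ± 0.42). Cxcl10 and Cd44, the hyaluronan receptor, were on the immune side (-2.26 ± 0.38 and -1.34 ± 0.33). Lcn2, an iron-binding protein used as a mark of reactive astrocytes and also made by neutrophils, had 338, 165 and 324 CPM against 155, 136 and 218 CPM (0.70 ± 0.37), and did not pass. Vim, the filament vimentin, had 313 ± 43.2 against 178 ± 50.1 CPM, a call lost without astrocyte library 2 or immune library 3 (0.71 and 0.61).

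Both classes of reactive genes were mixed. Of A1 genes, named from the response to lipopolysaccharide, 5 of 11 were called higher in the astrocyte and 4 in the immune fraction. Amigo2, an adhesion protein, and Gbp2, a guanylate-binding protein, were on the astrocyte side at 188 ± 27.3 against 6.58 ± 1.73 CPM and 182 ± 16.8 against 20.01 ± 1.23 CPM, and so were Serping1, Iigp1 and Fbln5. H2-D1, H2-T23, Psmb8 and the granule proteoglycan gene Srgn were on the immune side, with Srgn at 57.8 ± 15.4 against 1534 ± 361 CPM. Of A2 genes, named from the response to ischaemia, 7 of 12 were called higher in the astrocyte and 3 in the immune fraction. Ptx3, a soluble pattern receptor, had 182, 134 and 201 CPM against 4.66, 1.95 and 3.49 CPM (5.69 ± 0.38), and Tgm1, a transglutaminase, 129 ± 9.39 against 16.04 ± 3.30 CPM. Cd14, Ptgs2 and Clcf1 were the members on the immune side, at -5.48 ± 0.38, -4.43 ± 0.42 and -2.87 ± 0.30.

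Matrix genes were mostly on the astrocyte side. 20 of 28 were called higher there and 4 in the immune fraction, with a median of 3.33. Sparcl1, which promotes synapse formation, had 10532 ± 1209.6 against 213 ± 24.1 CPM, and Bcan, a chondroitin sulphate proteoglycan of nets around neurons, 1615 ± 51.2 against 43.6 ± 9.16 CPM. Timp3, an inhibitor of matrix proteases, had 261 ± 21.4 against 6.02 ± 2.54 CPM. The basement membrane genes Col4a1, Lama2 and Nid1 had 246 ± 37.6 against 21.7 ± 7.03 CPM, 71.7 ± 5.24 against 2.41 ± 0.715 CPM and 44.1 ± 14.8 against 1.25 ± 0.345 CPM. Vessel cells make them as well, and the endothelial, pericyte and fibroblast lists were higher in this fraction, in the sums given above. Their part in these levels was not tested. On the immune side were Thbs1, Mmp9, Adamts1 and Vcan. Mmp9, the gelatinase that neutrophils release, had 1.20, 0.446 and 0.758 CPM in astrocyte and 47.2, 24.7 and 94.6 CPM in immune libraries (-6.11 ± 0.55, and -5.48 without library 5). Sparc had 995 ± 219 against 906 ± 85.1 CPM, a difference of 0.14 ± 0.24, and was not called.

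Receptors for ATP and adenosine were exchanged between the fractions. Of 16 genes 7 were called higher in the astrocyte and 8 in the immune fraction. Among ectoenzymes, Entpd2, which stops at ADP, had 58.7, 64.3 and 63.3 CPM in astrocyte and 1.47, 0.866 and 1.79 CPM in immune libraries (5.51 ± 0.43), and Entpd1, which carries on to AMP, 16.9, 11.9 and 19.6 CPM against 199.9, 169 and 176 CPM (-3.49 ± 0.26). Of adenosine receptors Adora1 had 248 ± 25.5 against 73.9 ± 15.3 CPM, higher in the astrocyte fraction, and Adora3 1.74 ± 0.307 against 69.6 ± 6.08 CPM, higher in the immune fraction. The nucleotide receptors P2ry12, P2ry13 and P2ry6 were on the immune side (-3.96 ± 0.35, -5.38 ± 0.37 and -4.33 ± 0.32) and P2ry14 and P2ry1 on the astrocyte side (3.56 ± 0.48 and 1.97 ± 0.40). Adk, the kinase that removes adenosine, had 235 ± 14.1 against 22.8 ± 1.12 CPM. Nt5e, which makes adenosine from AMP, was not called.

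Lipid mediators were divided likewise. 10 of 18 genes were called higher in the immune and 7 in the astrocyte fraction. Both cyclooxygenase genes, Ptgs1 and Ptgs2, were on the immune side (-3.23 ± 0.24 and -4.43 ± 0.42), whereas Ptges, the prostaglandin E synthase, was on the astrocyte side at 97.7, 80.99 and 88.3 CPM against 30.9, 13.7 and 9.35 CPM (2.31 ± 0.44, and 2.94 without immune library 1). Prostaglandin D synthase exists in a lipocalin form, from Ptgds, with 700.5 ± 209 against 78.7 ± 22.3 CPM, and in a haematopoietic form, from Hpgds, with 5.01 ± 1.93 against 222 ± 41.2 CPM. The genes of leukotriene synthesis, Alox5, Alox5ap and Ltc4s, were on the immune side (-5.01 ± 0.42, -5.04 ± 0.34 and -5.63 ± 0.49, the last -6.77 without astrocyte library 6). For sphingosine phosphate, S1pr1 had 1322 ± 180.3 against 64.4 ± 7.82 CPM, S1pr3 80.1 ± 22.6 against 5.71 ± 2.36 CPM and S1pr4, of lymphoid and myeloid cells, 0.588 ± 0.269 against 3.84 ± 0.570 CPM.

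Of 25 immediate early and heat shock genes, 22 were higher in the immune fraction, with a median of -1.44. Atf3, a stress factor, had 93.6, 58.4 and 69.05 CPM in astrocyte and 962, 796 and 989 CPM in immune libraries (-3.64 ± 0.23). Junb had 342 ± 63.9 against 1699 ± 376 CPM and Egr1 229 ± 85.02 against 762 ± 202 CPM. Fos had 487, 417 and 285 CPM in astrocyte and 442, 446 and 576 CPM in immune libraries, a difference of -0.30 ± 0.35 that did not pass. Fosl1, a slower member of the family, and Hspb1, a small heat shock protein, were on the astrocyte side (1.25 ± 0.42 and 1.72 ± 0.36). The call of Fosl1 was lost without astrocyte library 2 (1.11) or immune library 5 (0.88), which leaves 1 member on that side. Hspa1a and Hspa1b are nearly identical, and reads may have been split between them.

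Housekeeping programmes differed between the fractions. All 46 cytosolic ribosomal protein genes of the list were called higher in the immune fraction, 36 of them by more than 2-fold, with a median of -1.53. Rpl4 had 583, 454 and 478 CPM in astrocyte and 1789.8, 1131 and 1235 CPM in immune libraries, and the list held 0.376, 0.305 and 0.356% of reads in astrocyte libraries 2, 4 and 6 and 1.17, 0.871 and 1.04% in immune libraries 1, 3 and 5. Processed pseudogenes resemble these genes, and how reads matching both were counted is not given in the sources used here. Nuclear-encoded respiratory chain genes leaned the other way, with 14 of 28 called higher in the astrocyte and 0 in the immune fraction, and a median of 0.47. Atp5b had 1203 ± 75.2 against 914 ± 170.2 CPM and was not called, Atp5a1 had 966 ± 70.2 against 607 ± 103 CPM and Sdha 445 ± 36.6 against 191 ± 28.1 CPM.

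Mitochondrially encoded genes were called higher in the astrocyte fraction for 7 of 9, with a median of 0.96. mt-Co1, a subunit of cytochrome oxidase, had 18951 ± 3578 against 7347 ± 1201 CPM and mt-Cytb, of the bc1 complex, 14265 ± 3276 against 6359.6 ± 1025 CPM. Mitochondrial genes took 4.56 to 6.55% of reads in astrocyte and 2.71 to 3.29% in immune libraries. The 10 most abundant genes took 9.01 to 11.1% and 5.15 to 6.74%. In an exact permutation test (two-sided) each had p = 0.1, the smallest that 3 against 3 libraries allow.

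Cell cycle genes were found on both sides. 8 of 20 were called higher in the immune and 4 in the astrocyte fraction, with a median of -0.30. Mki67, which marks dividing cells, had 0.531 ± 0.320 against 3.93 ± 1.86 CPM, a difference of -2.84 and, without astrocyte library 6, -3.45. Of the minichromosome maintenance genes, which license replication, Mcm2, Mcm3, Mcm5 and Mcm6 were on the immune side and Mcm4 on the astrocyte side, at 1.20 ± 0.19. Ccnd2, a cyclin of the first gap phase, had 89.9 ± 6.63 against 30.7 ± 0.628 CPM, higher in the astrocyte fraction. Cdkn1a, the inhibitor p21, had 296 ± 163 against 356 ± 81.4 CPM and was not called. Rrm2, a subunit of ribonucleotide reductase, had 8.01, 6.47 and 5.37 CPM in astrocyte and 0.409, 0.577 and 0.850 CPM in immune libraries (3.42 ± 0.32), opposite to most of the list.

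Semaphorins and their receptors, the family of the mutated gene, guide growing axons and moving cells. 16 of 31 were called higher in the astrocyte and 5 in the immune fraction, with a median of 1.15. Of the ligands, Sema6d had 135 ± 6.90 against 7.89 ± 0.676 CPM (4.10 ± 0.35) and Sema7a 115 ± 19.5 against 45.5 ± 6.88 CPM (1.34 ± 0.18). Sema4d, a relative of Sema4b found on leukocytes, was on the immune side at 69.5, 72.7 and 76.8 CPM in astrocyte and 219, 110.1 and 265 CPM in immune libraries (-1.44 ± 0.25), as were Sema4c (-1.28 ± 0.30) and Sema6b (-0.65 ± 0.20). The call of Sema6b was lost without astrocyte library 2 or 6 (-0.54 and -0.60). Of the receptors, the plexins Plxnb1 and Plxnb2 differed in opposite directions, by 5.42 ± 0.51 and -1.91 ± 0.22. Nrp2, a co-receptor, was on the immune side at 16.2 ± 2.43 against 149.7 ± 47.4 CPM (-3.21 ± 0.29), and its relative Nrp1, at 22.8 ± 1.49 against 24.9 ± 5.60 CPM, was not called.

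Ligands and receptors were set side by side in 26 known pairs. Both genes were called in 20 pairs, in opposite fractions in 11 and in the same fraction in 9. Of all genes tested 30.0% and 30.3% were called on the astrocyte and immune side, so unrelated called genes would also split near evenly. The split is therefore no result about the pairs, among which Csf1r, Cxcr2 and Sema4d recur. In 7 of the 11 opposite pairs the ligand was the astrocyte gene. The growth factor gene Il34, with 33.4 ± 1.91 against 11.2 ± 1.08 CPM, faced Csf1r of the immune fraction, whose other ligand gene Csf1, with 155 ± 13.7 against 668 ± 271 CPM, was itself on the immune side. The chemokine gene Cxcl12, with 41.4 ± 17.8 against 4.40 ± 0.478 CPM, faced Cxcr4, with 2.34 ± 0.472 against 70.4 ± 53.5 CPM (-4.11 without immune library 5). Il33 faced its receptor gene Il1rl1, low at 0.300 ± 0.0845 against 5.41 ± 0.884 CPM, and Tgfb2, with 31.9 ± 4.93 against 2.53 ± 0.495 CPM, faced Tgfbr2, with 39.9 ± 11.5 against 278 ± 12.7 CPM. Apoe faced Trem2, a lipid receptor of microglia, with 11.01 ± 2.10 against 268 ± 31.3 CPM. The genes of restraint Cd200 and Cd47 faced Cd200r1 (-4.21 ± 0.44) and Sirpa (-1.14 ± 0.20), at 1.74 ± 0.31 and 0.42 ± 0.15. The call of Cd47 was lost without any of libraries 1, 3, 4 and 6 (0.36 to 0.42) and on unscaled totals (0.33).

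In 4 pairs the ligand was the immune gene and the receptor the astrocyte gene. Il1b, the cytokine released by inflammasomes, had 24.1, 9.37 and 24.5 CPM in astrocyte and 1353, 647 and 1461 CPM in immune libraries. Its receptor gene Il1r1 had 86.7, 61.6 and 83.1 CPM in astrocyte and 5.97, 4.26 and 4.76 CPM in immune libraries, with no overlap in either. Osm, oncostatin M, had 5.72 ± 2.41 against 372 ± 80.6 CPM and Osmr, its receptor, 232 ± 21.6 against 6.80 ± 1.45 CPM. Endothelin, encoded by Edn1, had 8.99 ± 2.98 against 89.9 ± 48.5 CPM and its receptor gene Ednrb 279 ± 8.95 against 22.98 ± 4.74 CPM, while Sema4d and Plxnb1 are given above. All differences named for these 4 pairs were called.

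Among the 9 pairs on the same side 8 were on the immune side, which were Csf1 with Csf1r, Ccl2 with Ccr2, Cxcl2 with Cxcr2, Il6 with Il6ra, Tgfb1 with Tgfbr1, C3 with C3ar1, Sema4d with Plxnb2 and Spp1 with Cd44. Without immune library 1 the difference of Spp1 was -0.74 and its call was lost. Vegfa with Flt1 was on the astrocyte side. In the other 6 pairs at least one gene was not called. Cx3cl1, fractalkine, had 166 ± 14.4 against 126 ± 22.3 CPM, whereas its receptor gene Cx3cr1 was on the immune side. Tnfrsf1a, a receptor for Tnf, had 281 ± 22.95 against 208 ± 18.3 CPM. Lif and Lifr had differences of -0.32 ± 0.60 and 0.09 ± 0.21. Gas6 and Pros1, which bridge dying cells to phagocytes, were not called (-0.25 ± 0.27 and -0.31 ± 0.18), and their receptor genes Axl and Mertk were on the astrocyte side (3.95 ± 0.40 and 0.89 ± 0.20). Transcript levels alone do not show that a pair acts.

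**Figure D5:**
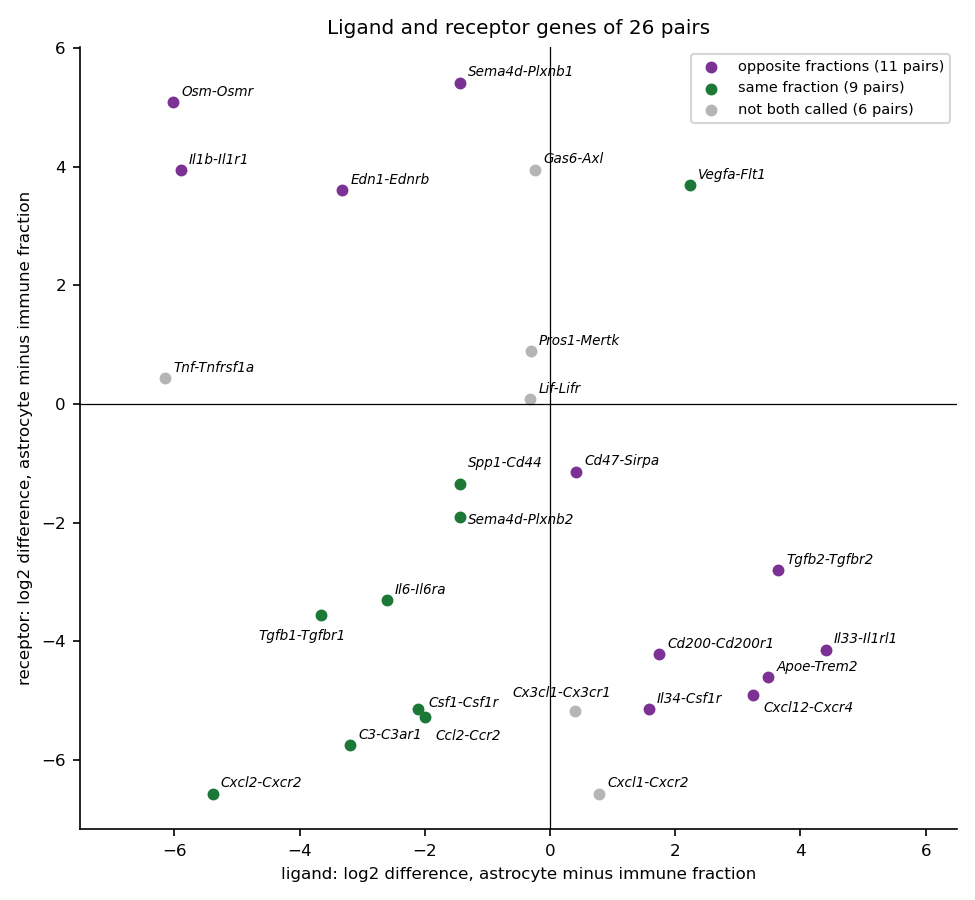
Difference between the fractions (log2, astrocyte minus immune) of the ligand gene (horizontal) and the receptor gene (vertical) in 26 pairs, with one point a pair. Purple pairs (11) were called in opposite fractions, green pairs (9) in the same fraction, and grey pairs (6) had a gene that was not called. Osm with Osmr lies at the upper left and Il33 with Il1rl1 at the lower right.

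Some abundant genes had like levels in both fractions. Of genes with at least 500 CPM in each, the 6 with the smallest difference were AC161763.1, App, Gnb1, Camk2a, Ywhae and Eif4g2. App, the amyloid precursor protein gene, had 575, 649.6 and 650.4 CPM in astrocyte and 734, 542 and 525 CPM in immune libraries, a difference of 0.06 with a 95% interval of -0.58 to 0.70. Camk2a, a kinase of excitatory neurons, had 697, 633 and 581 CPM against 586, 683 and 549 CPM (95% interval -0.35 to 0.50). The G protein subunit gene Gnb1 (-0.29 to 0.42), the adaptor gene Ywhae (-0.28 to 0.48) and the translation factor gene Eif4g2 (-0.53 to 0.30) had narrower intervals than AC161763.1 (-0.83 to 0.81). All 6 had overlapping ranges. They were chosen for small differences, so the values are a description, and the intervals leave room for differences of their width.

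The difference between fractions was compared between Sema4B+/- and Sema4B-/- mice by an interaction term. No gene passed by edgeR, with 1753 of 16880 genes at an unadjusted p under 0.05 and a lowest adjusted p of 0.475. Without any true difference 5% of genes would have such an unadjusted p, a share that 1753 of 16880 exceeds. The reason for this excess was not tested. DESeq2 on the same genes called 3, Il34, Fry and Cacna1c. Il34 in the immune fraction had 10.9, 10.3 and 12.4 CPM in heterozygotes and 23.1, 20.4 and 18.0 CPM in knockouts. In the astrocyte fraction it had 31.3, 33.8 and 35.1 CPM in heterozygotes and 29.1, 29.8 and 26.8 CPM in knockouts. Cacna1c had 23.1, 24.0 and 26.5 CPM in astrocyte and 17.2, 19.1 and 15.05 CPM in immune libraries of heterozygotes, against 16.1, 23.6 and 14.6 CPM and 47.0, 32.9 and 28.0 CPM in knockouts. Its libraries were thus higher in the astrocyte fraction of heterozygotes and in the immune fraction of knockouts. The log2 difference of heterozygotes, astrocyte minus immune, was above that of knockouts by 1.10 for Il34, 1.13 for Fry and 1.51 for Cacna1c, with DESeq2 adjusted p of 0.00318, 0.00247 and 0.0250 and an edgeR adjusted p of 0.475 for each.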

How the data were processed

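RNA-seq reads of 12 libraries, 3 in each of 4 groups, were counted per gene by the authors. The submitters' processing notes name cutadapt, STAR, HTSeq, DESeq2 and genome build GRCm38, with no versions. An annotation and counting settings are not given in the sources used here. The deposited table of each fraction holds raw counts per the file headers, whole reads per gene without normalization. The normalized columns and the authors' comparison of the genotypes were not used here.

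The tables were joined by gene identifier. Column names give a group and a number. They equal a sample title in 8 of 12 cases, but the other numbers stand in the titles of the other fraction, so the numbering was not matched to titles. Libraries are replicates of their group, named by the column's number, with no pairing stated in the labels. Libraries of a group differed beyond sampling noise (mean chi-square per gene of 10.9 to 79.9 over 12 pairs and genes with at least 20 reads), so none was counted as a copy. GENCODE mouse release 21 gave positions and gene types for 20740 identifiers. Of identifiers sharing a symbol (51 in all), the one with more reads stood for the symbol, which affected Aldoa and Itgam among the lists.

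All 12 libraries were fitted in edgeR 4.0.16 (R 4.3.3) as 4 group means, with TMM scaling, a filter by filterByExpr (minimum count 10 and minimum total 15) and a robust quasi-likelihood fit. Astrocyte was contrasted with immune fraction in heterozygotes, two-sided, adjusted by Benjamini-Hochberg over 16880 genes with a threshold of 0.05, and with glmTreat against 2-fold. The quasi-likelihood test itself gives no SE. Each SE is the absolute log2 difference divided by the square root of the F statistic. The 95% intervals take this SE with the t distribution at the test's degrees of freedom, so both are approximate. The tests were run on simulated data with 200 changed genes. These are far fewer than were called here, so the simulation does not check scaling or false calls where most genes differ. CPM use the TMM-scaled totals of this fit. A floor of 3 reads is 0.203 to 0.222 CPM in astrocyte and 0.227 to 0.270 CPM in immune libraries on unscaled totals, and covers counting error only. Lists of genes (48) and pairs (26) were described by counts and medians.

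Members, lists and pairs were chosen with earlier results of these data known. Genes were named by a rule. It took Sema4b, the antigens and the set markers, the 15 largest called differences per direction with no overlap and at least 100 CPM, and the 4 most abundant members of each list with up to 3 called opposite to it. It also took all pair genes, and the 6 smallest differences above 500 CPM. Some genes that the rule takes are not reported here. Other genes named from the lists, and Fry and Cacna1c, were picked after their values were seen. The alternatives were RLE, upper-quartile and no scaling, DESeq2 1.42.0, limma-voom (limma 3.58.1), other filters, the 6 heterozygous libraries alone, a threshold of 0.01, 4-fold, leaving out each library and, chosen after seeing the data, a block of consecutive column numbers. Listed genes not in the tables, such as Ncr1, Bub1, mt-Co2 and mt-Co3, were not analysed here. Promoter windows came from RefSeq (GRCm38.p6), with those on chromosome 18 left out.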

Additional observations from a re-analysis of the deposited data

How the results depend on the processing

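No called gene changed sign under any alternative run. The count of genes higher in the astrocyte fraction ran from 4634 (unscaled totals) to 5411 (no filter on low counts) over the alternatives with all libraries and the same threshold, and that of the immune fraction from 4846 to 5641. Leaving out each library gave 4695 to 4912 and 4490 to 4956. At 4-fold in place of 2-fold, 1368 and 1013 genes passed. DESeq2 called 3 genes for the difference between genotypes where edgeR called 0, and the cause was not tested. Unscaled totals moved the median gene by -0.09.

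Of 340 genes of the text that were tested, 12 lost their call under some alternative and 21 that were not called gained one. Of the 96 list counts, 11 moved by more than 1.5 times. Direction turned in 13 genes, none of them called. With unscaled totals App stood at -0.0136, Camk2a at -0.0227, Gnb1 at -0.0306 and Lifr at -0.0054, and with limma-voom Lifr at -0.133. Leaving out 1 library at a time gave ranges of -0.0273 (without immune library 5) to 0.2306 (immune 1) for App, -0.7609 (astrocyte 4) to 0.0391 (astrocyte 6) for Cdkn1a, -0.9118 (immune 3) to 0.0661 (immune 5) for Ciita and -0.0910 (astrocyte 6) to 0.9171 (immune 5) for Dynlrb2. They were -0.2298 (immune 5) to 0.0316 (immune 1) for Eif4g2, -0.5204 (astrocyte 6) to 0.7679 (astrocyte 4) for Fn1, -0.5482 (immune 3) to 0.0276 (immune 5) for Gas6 and -0.7084 (astrocyte 2) to 0.0805 (immune 5) for Lif. They were -0.2088 (astrocyte 4) to 0.2513 (astrocyte 2) for Lifr, -0.1798 (astrocyte 6) to 0.8825 (immune 5) for Neu4 and -0.0519 (astrocyte 2) to 0.2553 (astrocyte 4) for Sparc. App also stood at -0.0022 without immune library 3.

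The groups share no replicate numbers, and the labels pair no libraries. Column numbers run through both fractions (1 and 2, 3 and 4, 5 and 6), and deviations from the group means correlated at 0.131, 0.279 and 0.206 in these pairs of heterozygotes (-0.194 to 0.0242 in other pairs) but at 0.0778, -0.327 and -0.0174 in knockouts, a hint from the data and not from the design. Deviations within a group sum to 0 for each gene, so the lower values of the other pairs are tied to the higher ones and add no separate evidence. A replicate block of these consecutive numbers, chosen after seeing the data, gave 4908 genes higher in the astrocyte and 4949 in the immune fraction. Under it Notch1 (0.61), Rela (-0.44) and Reln (0.94) lost their calls, the neuron list had 0 members called on the astrocyte side, and Fn1, not called, stood at -0.0303. With 3 libraries a fraction, exact permutation tests of single values cannot go below p = 0.1, and differences of genes near 1 CPM rest on few reads.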
